A study of Mus musculus with 4 samples.

Results

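The Hox genes are the homeobox transcription factor genes of the Hoxa, Hoxb, Hoxc and Hoxd clusters, and the 38 listed here were chosen by name, out of 21887 protein-coding genes of the mouse annotation. Of them 10 lie in the Hoxa cluster, 10 in Hoxb, 9 in Hoxc and 9 in Hoxd. The measurements came from ATAC-seq, a method that lets a transposase cut DNA where chromatin is open and calls peaks where cuts gather. The cells were mpkCCD clone 11, a single clone of a mouse kidney line that keeps features of the cortical collecting duct, at passages 8 to 10. Both groups were grown to confluence on permeable supports and moved to medium free of serum and hormones, and then held for 30 minutes either with 0.1 nM dDAVP, a vasopressin analog that acts on the V2 receptor, or with its vehicle. Each group had 2 libraries of 50000 cells, whose origin in separate cultures is not stated, so that p-values measure a spread between libraries that may be technical.

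Each library had its own peak list, holding only the position of each peak. Replicates 1 and 2 had 393956 and 206972 peaks with vehicle, and 291454 and 205771 with dDAVP. The replicate 1 lists were the longer in both groups, the number of reads behind each list is unknown, and the absence of a peak means only that none was called. Marker genes of the collecting duct principal cell had a peak within 1 kb of a gene end in every library for 8 of 11 genes (72.7%), Aqp2 among them, against 65% of all protein-coding genes, and Aqp3, Scnn1b and the vasopressin receptor gene Avpr2 had one in 2 libraries. The same held for 3 of 4 intercalated cell genes, 1 of 4 proximal tubule genes, 1 of 2 stromal genes, 1 of 2 leukocyte genes and none of the 2 genes each for thick ascending limb, podocyte and endothelium. An accessible gene end is not a transcript, and no RNA was measured in these libraries.

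Hox proteins bind DNA through a homeodomain, usually together with TALE partners of the Pbx and Meis families, and give cells an identity along the axis of the body. Genes of one cluster lie in a fixed order: low paralog numbers are expressed in the front of the embryo and high numbers toward its tail, so that low and high numbers are called anterior and posterior here. Polycomb complexes keep unused parts of a cluster closed and trithorax complexes keep used parts open. The kidney arises far back in the embryo, and its development needs posterior Hox genes, among them Hoxa11, Hoxc11 and Hoxd11.

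The clusters also carry microRNA genes, which are shown because those of the miR-10 and miR-196 families recur beside Hox genes in different clusters. The mature sequences are from RefSeq on GRCm38.p6 (the reference assembly that mm10 carries), written 5′ to 3′, with the seed (bases 2 to 8) in capitals.
miR-10a-5p (chr11:96317186-96317208, plus strand, beside Hoxb4): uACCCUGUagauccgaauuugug
miR-10b-5p (chr2:74726074-74726096, plus strand, beside Hoxd4): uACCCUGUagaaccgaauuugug
miR-196a-5p (chr15:102973365-102973386, plus strand, beside Hoxc10; also chr11:96265187-96265208, plus strand, between Hoxb13 and Hoxb9): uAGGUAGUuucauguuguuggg
miR-196b-5p (chr6:52230129-52230150, minus strand, beside Hoxa10): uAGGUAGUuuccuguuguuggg
miR-615-3p (chr15:103014969-103014990, plus strand, inside Hoxc5): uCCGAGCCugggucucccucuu

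The first pair shares the seed ACCCUGU and the miR-196 pair shares AGGUAGU, while miR-615-3p has a seed of its own. Mir10a and Mir10b lie beside the paralogs Hoxb4 and Hoxd4. The copies of miR-196 lie between paralogs 9 and 10 in Hoxa and Hoxc, and between Hoxb9 and Hoxb13 in Hoxb, where the listed genes skip from paralog 9 to paralog 13.

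A gene end counted as accessible where a peak overlapped the window from 1 kb before to 1 kb after either outermost end of the RefSeq gene. By this measure 33 of the 38 Hox genes (86.8%) had a peak at a gene end in all 4 libraries, against 65% of all protein-coding genes. The other 5 genes, Hoxb3, Hoxc4, Hoxd10, Hoxd11 and Hoxd12, had one in 1 to 3 libraries, and no Hox gene lacked one everywhere. With peaks inside the gene counted as well, 37 of 38 had a peak in all 4 libraries, against 77.1% of all genes, and Hoxd12 had one in 3. Neighbours share few of these peaks: of 256 gene-end peaks summed over libraries, 18 lay at the ends of more than 1 Hox gene. The long gene models of Hoxa3, Hoxb3 and Hoxd3 span other Hox genes, so peaks counted inside them also include those of Hoxa4, Hoxa5, Hoxa6, Hoxb4 and Hoxd4. Paired values are given for replicate 1 and then replicate 2 of a treatment.

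The median over Hox genes of the mean widest gene-end peak was 955 bp, compared with 688 bp over all protein-coding genes. Width is the extent of a called peak in base pairs and not a read count. A library without a gene-end peak counts as 0 bp in a gene's mean. These medians therefore also depend on how many genes had a peak in every library. The widest peak of a gene need not be the same peak, or lie at the same end, in every library. By paralog position, 6 of 7 anterior genes (paralogs 1 to 3), 14 of 15 central genes (4 to 8) and 13 of 16 posterior genes (9 to 13) had a gene-end peak in every library. The median of the mean widest peak was 1013 bp for the anterior genes, 1343 bp for the central genes and 856 bp for the posterior genes. The central value is that of the peak shared by Hoxa5 and Hoxa6. Library by library the order changed. For anterior, central and posterior genes the medians were 1094, 887 and 1180 bp in vehicle replicate 1 and 744, 775 and 565.5 bp in vehicle replicate 2. With dDAVP they were 904, 1384 and 955.5 bp in replicate 1 and 767, 1215 and 816.5 bp in replicate 2. Within each class the gene means spanned a wide range, from 204 to 2306 bp in the central class and from 153 to 2122 bp in the posterior class. The lowest means of these classes, at Hoxc4 and Hoxd11, include libraries without a peak. Every Hox gene of paralogs 9 and 13 had a gene-end peak in all 4 libraries (4 of 4 each), against 2 of 3 at paralogs 10 and 11 and 1 of 2 at paralog 12.

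**Figure D1:**
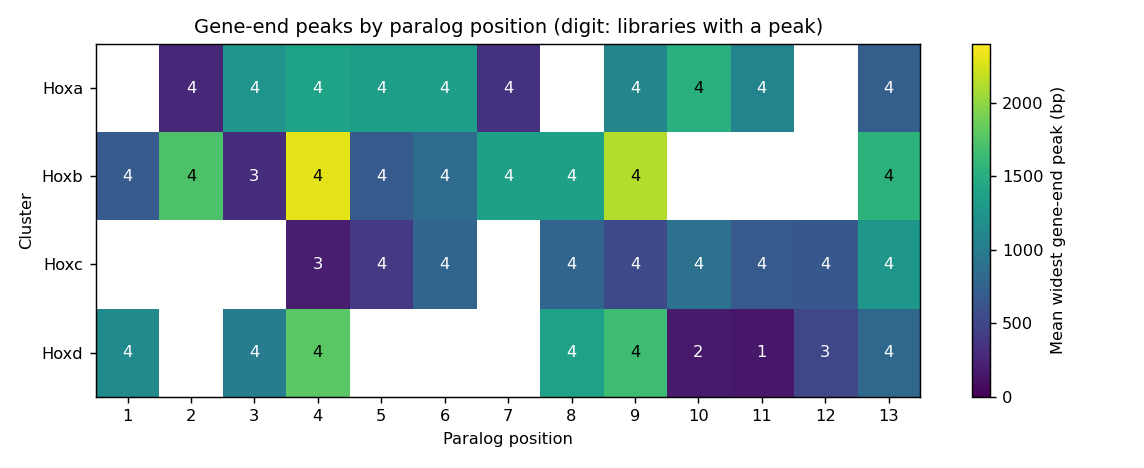
Grid of the 38 Hox genes by cluster (rows) and paralog position (columns); the colour is the mean width of the widest gene-end peak in bp over the 4 libraries, with 0 where none was called, the digit is the number of libraries with such a peak, and white cells hold no listed gene. Digits under 4 appear at Hoxb3, Hoxc4, Hoxd10, Hoxd11 and Hoxd12, and the brightest cells are Hoxb4 (2306 bp) and Hoxb9 (2122 bp).

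**Figure D2:**
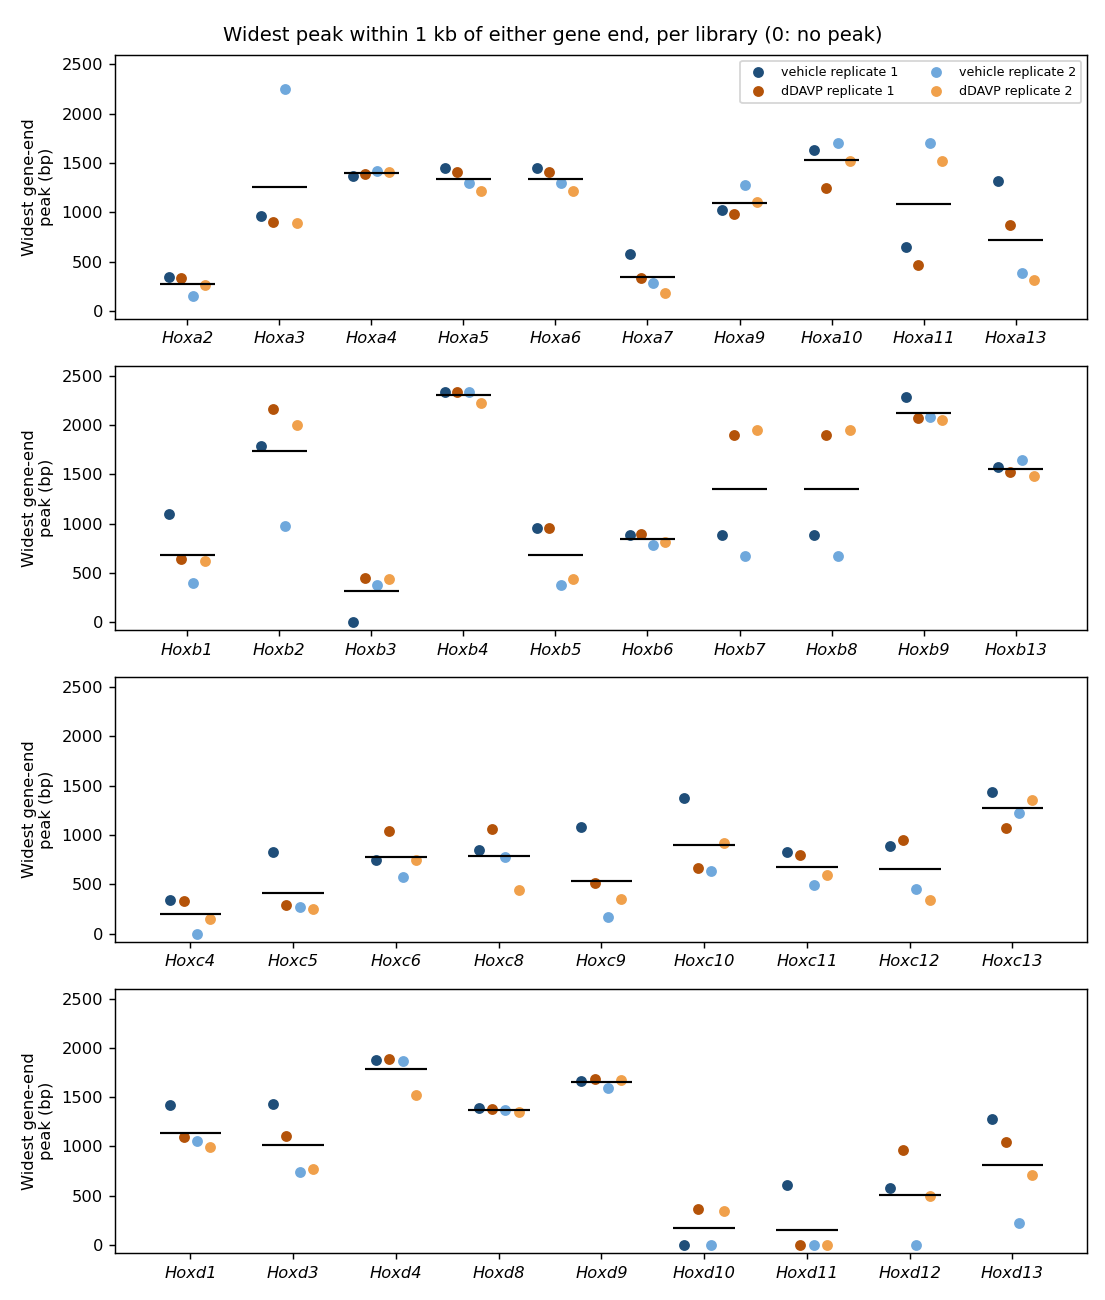
Width in bp of the widest peak within 1 kb of either gene end for each Hox gene (one panel per cluster), with a point per library and a bar at the mean of the 4 libraries; 0 means that no peak was called. The points of Hoxa4, Hoxb4, Hoxd8 and Hoxd9 lie close together, while those of Hoxa11, Hoxa13 and Hoxb7 are spread widely.

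In the Hoxa cluster (chr6:52162417-52260880, mm10) all 10 listed genes had a gene-end peak in every library. Hoxa2, which patterns the hindbrain and the second pharyngeal arch, had narrow ones, of 345 and 154 bp in the vehicle libraries and 338 and 263 bp in the dDAVP libraries (mean 275 ± 88.8 bp, SD, n = 4). The widest peak at Hoxa3, a gene needed for thymus and parathyroid development, measured 963 and 2255 bp with vehicle and 904 and 895 bp with dDAVP, so that vehicle replicate 2 stood apart. That library had a single peak at the 5′ end of Hoxa3 where each of the others had a pair. Over the whole region, chr6:52211226-52213552, peaks covered 1786 and 2255 bp with vehicle and 1625 and 1680 bp with dDAVP (1837 ± 287 bp, SD, n = 4). This was the widest all-library region of the Hoxa cluster, and it also lies at the ends of the noncoding RNA genes Hoxaas3 and Mira.

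Hoxa4 had the steadiest width of the cluster, with 1370 and 1417 bp in vehicle and 1385 and 1413 bp in dDAVP libraries (1396 ± 22.6 bp, SD, n = 4). Hoxa5, known for its role in lung and respiratory tract development, and Hoxa6 share a single peak between them, which covered 1451 and 1299 bp with vehicle and 1407 and 1215 bp with dDAVP (1343 ± 107 bp, SD, n = 4). Hoxa7 had a narrower peak, of 580 and 286 bp with vehicle and 336 and 186 bp with dDAVP (347 ± 167 bp, SD, n = 4). Hoxa9, a regulator of blood progenitors and posterior structures, had 1021 and 1276 bp with vehicle and 987 and 1103 bp with dDAVP (1097 ± 129 bp, SD, n = 4). That peak lies past the 3′ end of Hoxa9, on the side of Hoxa7.

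Hoxa10 and Hoxa11, which act in the urogenital tract and, for Hoxa11, in kidney development together with its paralogs, lie end to end. Hoxa10 had 1635 and 1700 bp with vehicle and 1251 and 1520 bp with dDAVP (1527 ± 198 bp, SD, n = 4). The peak of 1635 bp lay at its 3′ end and the others at its 5′ end. Hoxa11 had 647 and 1700 bp with vehicle and 462 and 1520 bp with dDAVP (1082 ± 618 bp, SD, n = 4). In 3 libraries the widest peak of Hoxa11 was one it shares with Hoxa10, and in dDAVP replicate 1, where that peak ended more than 1 kb from Hoxa11, it was another. The spread of Hoxa11 within each group was larger than the difference between groups. Hoxa13, the gene of the limb tips and the hindmost urogenital tract, had 1323 and 389 bp with vehicle and 872 and 312 bp with dDAVP (724 ± 470 bp, SD, n = 4), wider in the longer replicate 1 list of each group. The part of list length in such differences was not tested.

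In the Hoxb cluster (chr11:96194316-96368254, mm10) 9 of 10 genes had a gene-end peak in all 4 libraries. Hoxb1, a hindbrain gene, had 1094 and 395 bp with vehicle and 638 and 620 bp with dDAVP (687 ± 293 bp, SD, n = 4). Hoxb2 had 1791 and 978 bp with vehicle and 2163 and 2000 bp with dDAVP (1733 ± 526 bp, SD, n = 4), so that both dDAVP values were the higher. Hoxb3 had none in vehicle replicate 1, the library with the most peaks, and 382 bp in vehicle replicate 2, against 452 and 437 bp with dDAVP. The outermost ends of Hoxb3 are far apart, and 10 to 14 peaks lay within the gene in each library.

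Hoxb4, which promotes blood stem cell expansion, had the widest mean gene-end peak of all 38 Hox genes. It measured 2332 and 2334 bp with vehicle and 2335 and 2221 bp with dDAVP (2306 ± 56.3 bp, SD, n = 4), covering nearly the whole region chr11:96318094-96320433. This is the region next to Mir10a, whose hairpin lay 820 to 828 bp from the nearest peak in the 4 libraries, measured from its near end. Hoxb5 had 959 and 382 bp with vehicle and 954 and 437 bp with dDAVP, but these are different peaks. The replicate 2 values belong to a peak at the other gene end, shared with Hoxb3. The region of the replicate 1 peaks, chr11:96303141-96304109, had 959 and 333 bp under peaks with vehicle and 954 and 361 bp with dDAVP, again wider in the replicate 1 lists. Hoxb6 was steadier, at 881 and 781 bp with vehicle and 892 and 811 bp with dDAVP (841 ± 53.9 bp, SD, n = 4).

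Hoxb7 and Hoxb8 share their widest gene-end peak, which measured 887 and 668 bp with vehicle and 1903 and 1951 bp with dDAVP (1352 ± 670 bp, SD, n = 4). Here the groups did not overlap. In both vehicle libraries the same stretch, chr11:96285288-96287284, was called as a pair of peaks that covered 1604 and 1328 bp in all, so the difference in covered bases was smaller than that in the widest peak, and its test is given with the treatment comparison. Hoxb9 had 2285 and 2079 bp with vehicle and 2075 and 2047 bp with dDAVP (2122 ± 110 bp, SD, n = 4), the next widest mean after Hoxb4. Hoxb13, known from the prostate and hindgut, had 1571 and 1645 bp with vehicle and 1523 and 1479 bp with dDAVP (1555 ± 71.1 bp, SD, n = 4).

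In the Hoxc cluster (chr15:102921131-103036856, mm10) 8 of 9 genes had a gene-end peak in all 4 libraries, and the median of the mean widest peak was 680 bp, compared with 1176 bp in Hoxa, 1352 bp in Hoxb and 1013 bp in Hoxd. Hoxc4 had 341 bp and no peak with vehicle and 327 and 147 bp with dDAVP. Hoxc5 had 831 and 266 bp with vehicle and 294 and 254 bp with dDAVP. Hoxc6, a gene of thoracic identity, had 747 and 570 bp with vehicle and 1045 and 751 bp with dDAVP, so that the lower dDAVP value lay just above the higher vehicle value.

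Hoxc8, which acts in the brachial and thoracic spinal cord and skeleton, had 853 and 775 bp with vehicle and 1065 and 443 bp with dDAVP. Hoxc9 had 1084 and 170 bp with vehicle and 510 and 355 bp with dDAVP. Hoxc10, a lumbar gene, had 1373 and 635 bp with vehicle and 666 and 918 bp with dDAVP. These 3 genes overlapped between the groups and varied widely within them.

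Hoxc11 had 827 and 496 bp with vehicle and 802 and 594 bp with dDAVP. Hoxc12 had 889 and 451 bp with vehicle and 946 and 340 bp with dDAVP. Both were wider in the replicate 1 lists. Hoxc13, a regulator of hair and nail keratin genes, had the widest all-library region of this cluster, chr15:102920640-102922252, with 1433 and 1226 bp under peaks in vehicle and 1075 and 1353 bp in dDAVP libraries (1272 ± 156 bp, SD, n = 4).

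In the Hoxd cluster (chr2:74668225-74765142, mm10) 6 of 9 genes had a gene-end peak in all 4 libraries, and the 3 that did not are the neighbours Hoxd10, Hoxd11 and Hoxd12. Hoxd1 had 1421 and 1053 bp with vehicle and 1099 and 990 bp with dDAVP (1141 ± 192 bp, SD, n = 4). Hoxd3 had 1434 and 744 bp with vehicle and 1106 and 767 bp with dDAVP. Hoxd4, a gene of the cervical vertebrae, had 1879 and 1868 bp with vehicle and 1885 and 1518 bp with dDAVP (1788 ± 180 bp, SD, n = 4). Its region, chr2:74726559-74729008, was the widest of the cluster found in all libraries, with 1848 ± 250 bp under peaks (SD, n = 4), and lies next to Mir10b as that of Hoxb4 lies next to Mir10a.

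Hoxd8 had the smallest spread among the Hox genes, at 1390 and 1368 bp with vehicle and 1384 and 1345 bp with dDAVP (1372 ± 20.1 bp, SD, n = 4). Hoxd9, its neighbour, had 1663 and 1592 bp with vehicle and 1680 and 1677 bp with dDAVP (1653 ± 41.3 bp, SD, n = 4). Hoxd13, the gene of digits and the genital tubercle, had 1276 and 222 bp with vehicle and 1046 and 715 bp with dDAVP (815 ± 457 bp, SD, n = 4). Hoxd12 had 580 bp and no peak with vehicle and 965 and 493 bp with dDAVP.

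Hoxd10 had a gene-end peak in the dDAVP libraries alone, of 367 and 340 bp, and Hoxd11 had one in vehicle replicate 1 alone, of 610 bp. Both genes, which act with their paralogs in limb and kidney development, had wide peaks away from the outermost ends of their models. In Hoxd10 the region chr2:74691138-74692958 had 1486 and 1750 bp under peaks with vehicle and 1759 and 1244 bp with dDAVP (1560 ± 246 bp, SD, n = 4). In Hoxd11 the region chr2:74681546-74683200 had 1622 and 534 bp with vehicle and 1654 and 1523 bp with dDAVP (1333 ± 536 bp, SD, n = 4), where vehicle replicate 2 was the low one.

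The RefSeq promoter table, which holds 250 bases before and 50 bases after a start, matched 22 of the 38 Hox genes with 24 starts. Of these genes 13 (59.1%) had a start window under a peak in all 4 libraries, against 57.4% of all protein-coding genes in the table. All 300 bases were under peaks in each of the 4 libraries at Hoxa3, Hoxd9 and the tabled start of Hoxd10. No peak touched the window in any library at 7 starts, those of Hoxa6, Hoxa7, Hoxa9, Hoxa11, Hoxb8, Hoxd12 and the outer start of Hoxd11. The windows of Hoxa2, Hoxc4 and Hoxd4 were touched in 3 libraries, and that of Hoxd4 had 0 and 300 bases covered with vehicle and 97 and 300 bases with dDAVP.

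Hoxd11 has a start on either side of this divide, so the 250 bases before each of its starts are shown, with those of Hoxd9 and Hoxd10 as starts under peaks in every library and Hoxa7 and Hoxa9 as starts without one. The sequences are from RefSeq on GRCm38.p6, 5′ to 3′ in the direction of the gene, and capitals mark the motifs searched: the letters TATAAA of the core promoter element, the CCAAT box, the letters GGGCGG bound by Sp1 family factors, the cAMP response element TGACGTCA, the letters TGATNNAT bound by Hox with Pbx, and the Cdx letters TTTATG. Both strands were searched, and matches of different motifs can overlap.
Hoxd11 outer start, no peak (chr2:74679308-74679557, plus strand): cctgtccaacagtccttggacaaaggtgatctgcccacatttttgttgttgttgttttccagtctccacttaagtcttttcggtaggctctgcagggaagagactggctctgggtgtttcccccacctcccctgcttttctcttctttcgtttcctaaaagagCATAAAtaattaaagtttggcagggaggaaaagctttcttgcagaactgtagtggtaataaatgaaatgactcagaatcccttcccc
Hoxd11 inner start, under peaks (chr2:74682073-74682322, plus strand): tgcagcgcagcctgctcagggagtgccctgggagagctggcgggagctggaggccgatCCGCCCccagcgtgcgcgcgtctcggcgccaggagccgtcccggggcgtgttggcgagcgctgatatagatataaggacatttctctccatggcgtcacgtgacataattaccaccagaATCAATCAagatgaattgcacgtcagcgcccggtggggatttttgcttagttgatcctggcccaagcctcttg
Hoxd10, under peaks (chr2:74691641-74691890, plus strand): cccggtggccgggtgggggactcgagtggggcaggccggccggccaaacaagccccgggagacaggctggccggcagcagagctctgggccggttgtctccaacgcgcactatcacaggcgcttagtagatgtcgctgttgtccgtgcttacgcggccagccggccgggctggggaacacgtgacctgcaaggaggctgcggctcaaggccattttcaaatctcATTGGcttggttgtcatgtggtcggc
Hoxd9, under peaks (chr2:74697513-74697762, plus strand): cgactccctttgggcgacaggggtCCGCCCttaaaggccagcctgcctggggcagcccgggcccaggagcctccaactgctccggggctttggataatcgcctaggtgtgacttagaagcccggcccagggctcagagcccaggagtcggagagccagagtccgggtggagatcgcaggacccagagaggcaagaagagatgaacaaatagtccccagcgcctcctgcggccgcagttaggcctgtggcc
Hoxa7, no peak (chr6:52218574-52218823, minus strand): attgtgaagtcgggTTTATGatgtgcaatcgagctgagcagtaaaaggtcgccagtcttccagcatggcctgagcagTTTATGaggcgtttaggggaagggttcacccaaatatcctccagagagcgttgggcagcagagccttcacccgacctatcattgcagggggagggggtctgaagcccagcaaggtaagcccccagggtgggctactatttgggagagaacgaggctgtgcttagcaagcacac
Hoxa9, no peak (chr6:52227371-52227620, minus strand): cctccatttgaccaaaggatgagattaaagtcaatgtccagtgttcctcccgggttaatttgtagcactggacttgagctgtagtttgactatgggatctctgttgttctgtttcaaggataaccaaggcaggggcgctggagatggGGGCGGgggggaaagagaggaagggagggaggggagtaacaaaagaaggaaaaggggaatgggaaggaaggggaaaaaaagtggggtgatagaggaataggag

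The inner window of Hoxd11 holds 25 CpG dinucleotides in 300 bases and its outer window holds 4. The windows of Hoxd10 and Hoxd9 hold 22 and 20, and those of Hoxa7 and Hoxa9 hold 9 and 4. Over the 14 starts touched in all libraries the median window had 61.8% G and C and 20.5 CpG, over the 7 untouched ones 51% and 13, and over all tabled starts 52.7% and 7. The last set, used for the motifs too, holds all 32851 starts of the table and not only the 21263 of the protein-coding genes above. Hoxa6 is an exception among the untouched windows, with 26 CpG.

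Of the motifs, CCAAT was found in 15 of the 24 Hox windows (62.5%), against 37.4% of all 32851 windows. It was in 9 of the 14 touched in all libraries and in 3 of the 7 untouched ones. GGGCGG was found in 10 Hox windows, 6 of the 14 touched and 3 of the 7 untouched, against 35.7% of all. The Cdx letters, named for factors that activate central and posterior Hox genes, were found in 5 Hox windows, 1 of the 14 touched and 3 of the 7 untouched, against 11.9% of all. TGATNNAT was found in 4, against 8.85% of all, and TATAAA in 4, against 13.6%. Each of these motifs was in 2 of the 14 touched and 1 of the 7 untouched windows. The cAMP response element, the letters bound by CREB downstream of the V2 receptor's cAMP, was found in none of the 24 and in 1.79% of all windows. These are matches of letters in short windows, and no binding was measured.

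Next, merged regions were mapped along each cluster and 100 kb on each side. A merged region is a stretch under a peak in at least 1 library, with peaks joined where they overlap by at least 1 bp. The clusters held 221 regions, of which 88 (39.8%) were found in all 4 libraries. The flanks held 287 regions, of which 44 (15.3%) were, close to the 15.7% of all 560228 regions of the genome. Regions seen in 1 library made up 34.4% of those inside the clusters, against 53.1% of all.

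All-library regions were dense inside every cluster, at 1.62 per 10 kb in Hoxa, 1.90 in Hoxb, 1.81 in Hoxc and 1.86 in Hoxd. Over the whole chromosome the density was 0.231 per 10 kb on chromosome 6, 0.413 on chromosome 11, 0.515 on chromosome 15 and 0.362 on chromosome 2. The clusters are gene-dense, and these densities were not matched for gene content. Of the 88 regions, 44 lay at the end of a Hox gene, 27 inside one and away from its ends, and 17 between Hox genes. Their median covered width was 636 bp, compared with 387 bp in the flanks and 467 bp over all-library regions of the genome.

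**Figure D3:**
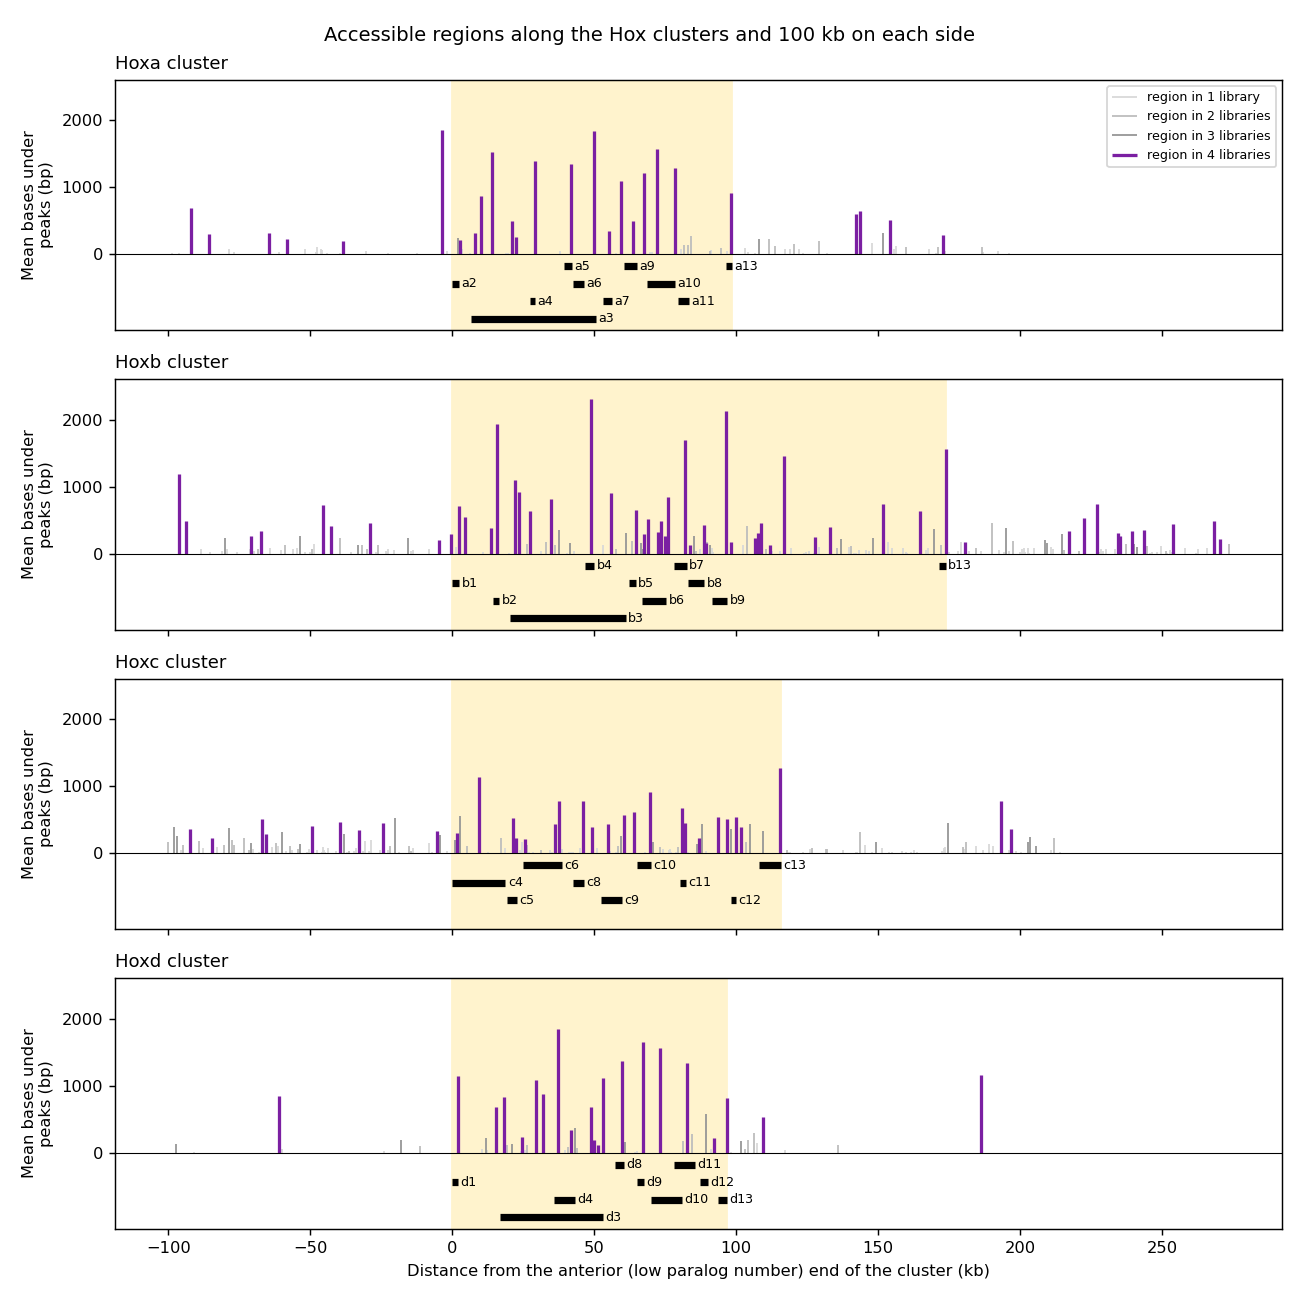
Merged regions along each cluster and 100 kb on each side, with the distance in kb from the anterior end on the x axis and the mean bases under peaks over the 4 libraries (bp) on the y axis; colour gives the number of libraries, yellow marks the cluster and black bars below the line are the Hox genes. Tall purple lines, regions in all 4 libraries, gather inside the clusters, with 18 in Hoxd against 1 in its anterior and 2 in its posterior flank.

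The Hoxd cluster had the sharpest contrast with its surroundings. Peaks covered 21.9% and 16.7% of its bases in the vehicle libraries and 20.2% and 17.4% in the dDAVP libraries (19.1% ± 2.45, SD, n = 4). Its anterior flank was covered to 1.38% on average, its posterior flank to 2.99% and chromosome 2 to 3.89%. The cluster thus had 5.06 ± 0.757 times (SD, n = 4) the coverage of its chromosome, and its anterior flank 0.358 times. The anterior flank had 1 all-library region of 7 and the posterior flank, toward Evx2, 2 of 10, compared with 18 of 37 in the cluster.

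The Hoxa cluster was covered to 18.2% and 15.6% with vehicle and 17.0% and 15.4% with dDAVP (16.6% ± 1.34, SD, n = 4), against 4.34% and 4.98% in its flanks and 2.54% over chromosome 6. This was the highest ratio to the chromosome, 6.84 ± 1.34 times (SD, n = 4), and 16 of its 33 regions were found in all libraries. Hoxb was covered to 21.0% and 14.5% with vehicle and 17.6% and 15.4% with dDAVP (17.1% ± 2.91, SD, n = 4), against 7.50% and 9.31% in the flanks and 4.67% over chromosome 11.

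Hoxc differed between replicate numbers, with 20.7% in vehicle replicate 1 and 17.7% in dDAVP replicate 1 against 9.11% in vehicle replicate 2 and 10.2% in dDAVP replicate 2 (14.4% ± 5.69, SD, n = 4). The replicate 1 lists were also longer, and chromosome 15 moved the same way, with 8.69% and 6.27% against 4.42% and 4.35%. Relative to its chromosome Hoxc had 2.39 and 2.06 times the coverage with vehicle and 2.82 and 2.34 times with dDAVP, the lowest of the clusters in each library. Its anterior flank was covered to 9.95% and its posterior flank to 5.26% on average. Only 2 of 46 regions in the posterior flank, beyond Hoxc13, were found in all libraries, against 21 of 64 in the cluster. In all 4 clusters each library had more of the cluster's bases under peaks than of either flank.

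**Figure D4:**
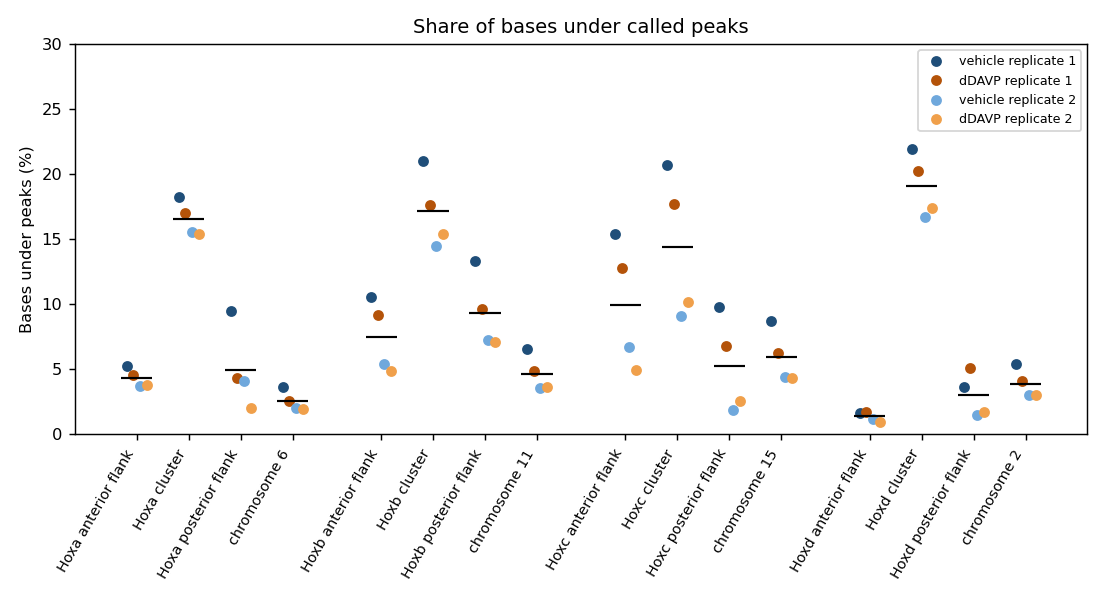
Percent of bases under called peaks in each cluster, its flanks of 100 kb and its whole chromosome, with a point per library and a bar at the mean of the 4 libraries. The cluster points of Hoxa, Hoxb and Hoxd lie above all points of their flanks and chromosome, and the Hoxc points split by replicate number (20.7% and 17.7% against 9.11% and 10.2%).

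Between Hox genes, the longest gap, of 74.7 kb from Hoxb13 to Hoxb9, held the most, with 10 all-library regions of 39. All 10 lay away from Hox gene ends, but some lay at ends of noncoding genes. The widest, chr11:96250430-96252306 at an end of the noncoding gene Gm53, had 1339 and 1354 bp under peaks with vehicle and 1496 and 1664 bp with dDAVP (1463 ± 151 bp, SD, n = 4). The gap between Hoxa11 and Hoxa13 held none of 4 in all libraries, and that between Hoxc11 and Hoxc10 none of 8. The gap of 14.7 kb from Hoxd3 to Hoxd1, filled by the noncoding gene Haglr, held 1 of 4.

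Several wide regions lay inside genes and away from their ends. Hoxa10 held chr6:52233591-52235614, with 1567 ± 115 bp under peaks (SD, n = 4), at another annotated start of the gene. Hoxa3 held chr6:52175174-52177587, with 1522 ± 353 bp, and Hoxb3 held chr11:96345543-96346767, with 1101 ± 94.2 bp. Hoxc4 held chr15:103026385-103028135 at an end of the noncoding gene Gm30528, with 1557 and 354 bp with vehicle and 1733 and 932 bp with dDAVP (1144 ± 629 bp, SD, n = 4), again wider in the replicate 1 lists.

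Of the microRNA genes, Mir10a, Mir10b, Mir196b, Mir196a-2 and Mir615 had a peak within 1 kb of the hairpin in all 4 libraries. Mir196a-1, between Hoxb13 and Hoxb9, had one in both replicate 1 libraries (855 and 783 bp) and in neither replicate 2 library. The noncoding RNA gene Hotair, in the Hoxc cluster and known for a role in Polycomb recruitment, had a gene-end peak of 592 bp and none with vehicle and of 1067 and 533 bp with dDAVP. In vehicle replicate 2 the nearest peak lay 1030 bp from Hotair, just beyond the window of 1 kb. The region on that side, chr15:102942669-102943553, was found in all 4 libraries. It had 592 and 172 bp under peaks with vehicle and 885 and 533 bp with dDAVP. Haglr had 1421 and 1053 bp with vehicle and 1099 and 990 bp with dDAVP, in a peak it shares with Hoxd1. Hoxa11os, antisense to Hoxa11, had a gene-end peak of 611 and 193 bp with vehicle and none with dDAVP. The stretch of the wider peak, chr6:52246087-52246747, was also under a peak of 462 bp in dDAVP replicate 1, which lay inside Hoxa11os beyond 1 kb from its end.

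The genes that work with the clusters are read against the 65% of all protein-coding genes that had such a peak in every library. Of 9 TALE cofactor genes 8 had a gene-end peak in every library, led by Pbx3 (2324 ± 93.7 bp) and Meis2 (1936 ± 11.9 bp, both SD, n = 4), and Meis1 had one, of 208 bp, in vehicle replicate 1 alone. All 12 Polycomb genes had one, the widest at the methyltransferase gene Ezh2 (1557 ± 39.0 bp) and at Bmi1 (1536 ± 100 bp). Of 5 trithorax genes 4 did, led by Kmt2a (2522 ± 136 bp), the methyltransferase that maintains Hox expression, and its partner Men1 (1387 ± 157 bp), and Ash2l had one in 2 libraries.

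Of 7 upstream regulators 4 (57.1%) had one in every library, a share below that of all genes. The widest were those of Rarg, a retinoic acid receptor gene (1225 and 973 bp with vehicle, 2648 and 2550 bp with dDAVP, 1849 ± 873 bp), and Ctcf, the insulator protein gene (1619 ± 15.5 bp, SD, n = 4). Rarb and Cdx4 had a gene-end peak in no library, although Rarb had peaks inside the gene in all 4. Of 10 genes that flank the clusters 8 had one in all 4 libraries, the widest at Cbx5 (1811 ± 60.2 bp) and Skap1 (1188 ± 158 bp). The other 2 were the homeobox genes Evx1 and Evx2, which adjoin the posterior ends of Hoxa and Hoxd and had one in 3 libraries each.

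For the treatment, the groups of the widest gene-end peak did not overlap at some Hox genes. It was wider with dDAVP at Hoxb2, Hoxb3, Hoxb7, Hoxb8, Hoxc6, Hoxd9 and Hoxd10 (7 of 38, 18.4%), against 10.2% of all protein-coding genes, where Hoxb7 and Hoxb8 share 1 peak. It was wider with vehicle at Hoxa3, Hoxa10, Hoxb9 and Hoxb13 (4 of 38, 10.5%), against 11.2% of all. At Hoxa10 the widest peak lay at the 3′ end in vehicle replicate 1 and at the 5′ end in the other libraries. The region at that 5′ end, chr6:52239797-52241683, had 647 and 1700 bp under peaks with vehicle and 1251 and 1520 bp with dDAVP, so there the groups overlapped. A stretch called in pieces is narrower by this measure, as at Hoxa3, Hoxb2 and Hoxb7. The tests use shares of peaks and covered bases instead.

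The comparison with vehicle asked whether 30 minutes of dDAVP changed accessibility at the clusters. As a share of each library's own peaks, the cluster windows with their flanks held 9.67 and 10.8 of every 10000 with vehicle and 11.3 and 10.7 with dDAVP, so the groups overlapped. The ratio of dDAVP to vehicle was 1.03 for Hoxa, 1.05 for Hoxb, 1.09 for Hoxc and 1.16 for Hoxd. No window passed the exact two-sided permutation test, with p = 1 for Hoxa and Hoxc and 0.667 for Hoxb and Hoxd (each 1 after Benjamini-Hochberg adjustment over the 4 clusters), where 2 libraries against 2 cannot go below 0.333. Leaving out 1 library turned the direction of each ratio below 1: 0.989 for Hoxa without vehicle replicate 2, 0.984 for Hoxb without vehicle replicate 1, 0.932 for Hoxc without dDAVP replicate 1 and 0.959 for Hoxd without vehicle replicate 1.

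For the 132 regions of the windows found in all 4 libraries, bases under peaks were compared with limma on a log2 scale over all 88231 such regions of the genome. None of the 132 passed an adjusted p of 0.05, and 5 had an unadjusted p below it. Over the genome 0% passed the adjusted and 4.53% the unadjusted threshold (0 and 4000 regions). Of the 132 regions 67 were wider with dDAVP, against 54.1% of all regions, and the median log2 difference was 0.01, against 0.04 over all. Without normalization both medians lay below 0, at -0.05 and -0.03.

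**Figure D5:**
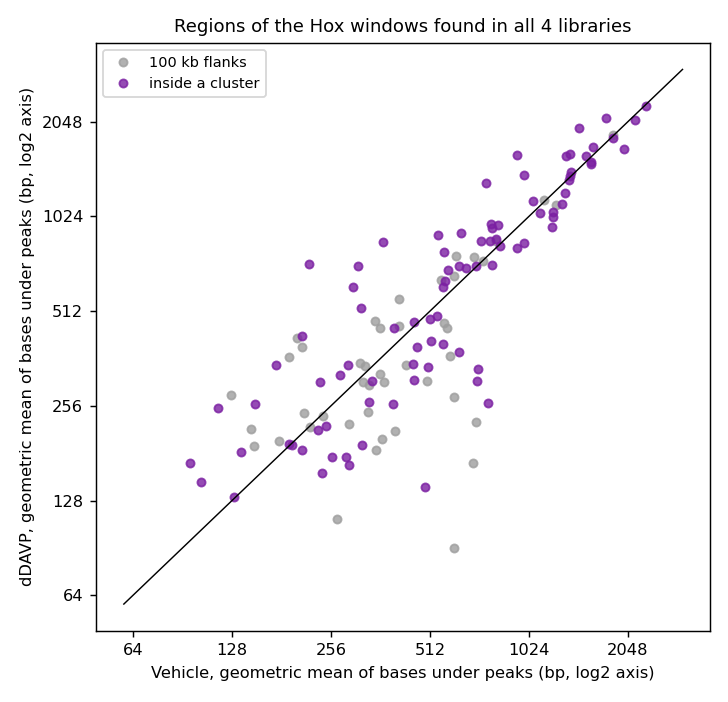
Bases under peaks, after quantile normalization, in the 132 all-library regions of the Hox windows. Values are the geometric mean of the 2 vehicle libraries (x axis) and of the 2 dDAVP libraries (y axis), both in bp on log2 axes. Purple points lie inside a cluster, grey points in the flanks, and the line marks equal values. Points lie on both sides of the line, wide regions lie closer to it, and no region passed the adjusted limma test.

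The regions with the smallest p in each direction were as follows. The Hoxb7 and Hoxb8 region chr11:96285288-96287284 had 1604 and 1328 bp with vehicle and 1903 and 1951 bp with dDAVP, a log2 difference of 0.43 (SE 0.12). The Hoxb2 region chr11:96351431-96353695 had 1791 and 1773 bp with vehicle and 2163 and 2000 bp with dDAVP, a log2 difference of 0.26 (SE 0.098). In both the groups did not overlap. Narrower with dDAVP were the Hoxc5 region chr15:103014900-103015862 at Mir615, with 831 and 750 bp against 328 and 193 bp (log2 difference -1.56, SE 0.48), and chr15:103128622-103129493 in the anterior flank of Hoxc (log2 difference -2.75, SE 0.59). All 4 regions were among the 5 below the unadjusted threshold, and the limma adjusted p was 1 for each.

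Few regions of the windows were called in one group alone: 14 of 508 regions (2.76%) were in both vehicle libraries and no dDAVP library, against 3.35% of all, and 3 (0.591%) the reverse, against 1.61%. The vehicle lists were the longer in sum, and the difference between the windows and the genome was not tested. Inside the clusters 4 were vehicle-only, each within 1 kb of a Hox gene end as a merged region, although at Hoxd11 the peak of vehicle replicate 2 lay farther in. They lay at Hoxa11 (chr6:52245244-52245589, 346 and 193 bp), Hoxb13 (chr11:96195864-96196417, 200 and 355 bp), Hoxb5 (chr11:96304616-96305234, 619 and 174 bp) and Hoxd11 (chr2:74679968-74681055, 610 and 492 bp). The 2 dDAVP-only regions lay between Hoxa11 and Hoxa13 (chr6:52253024-52253156, 111 and 73 bp) and at the outer end of Hoxd10, within Hoxd11 (chr2:74683504-74683870, 367 and 340 bp). Without 1 library in turn, the vehicle-only count ran from 18 to 136 and the dDAVP-only count from 8 to 78. The highest came without vehicle replicate 2 and without dDAVP replicate 2. Leaving out a library removes a condition that a region must meet, so a rise follows from the definition and does not measure stability.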

How the data were processed

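ATAC-seq was run on 2 vehicle and 2 dDAVP libraries of mpkCCD clone 11, sequenced as paired 50 bp reads. Per the submitters' processing notes cutadapt, Bowtie2, SAMtools, Picard, bedtools and MACS2 were used with the build mm10; no source used here gives their settings or any shift of cut sites. Each list the authors deposited holds peak positions alone (chromosome, start and end in base pairs, in 3 columns), with no score and no other values. Depth, peak height and significance are therefore unknown, and width is the only graded value. Peaks of the 4 lists were merged where they overlapped by 1 bp or more. Genes, promoter windows and microRNAs came from RefSeq GRCm38.p6 tables. Of the Hox genes 38 were analysed and 16 had no promoter window. The members and gene lists were chosen with earlier results of these data known. All Hox genes are named; of regions, the widest of each cluster, every treatment-only one inside a cluster and the 2 with the smallest p in each direction; of other genes, those with a gene-end peak in no library and the 2 widest per list. Other regions and genes given were chosen after their values were seen.

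Log2 covered bases of the 88231 all-library regions were quantile normalized and fitted with limma 3.58.1 (trend) in R 4.3.3 with Benjamini-Hochberg adjustment at 0.05, without a replicate block. Scripts ran in Python 3.11.15 and were tested on simulated data. Alternatives changed the overlap, the peaks kept, the normalization and the libraries.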

Additional observations from a re-analysis of the deposited data

How the results depend on the processing

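The counts of accessible gene ends and annotated starts stayed within 1.5 times of their values under every alternative run. The number of all-library regions in the Hox windows moved by over 1.5 times under 1 alternative, from 132 to 71 when peaks narrower than the library median were dropped. The dDAVP-only count of 3 regions was 5 with merging at 50% overlap, 13 with the widest peaks of each list in equal number and 5 without peaks narrower than the median. With 1 library left out it ran from 8 to 78, and the vehicle-only count of 14 from 18 to 136. That rise follows from the definition, since a region then has fewer conditions to meet. The Hoxa share turned from 1.03 to 0.982 when covered bases replaced peaks; leaving out 1 library gave 0.989 to 1.07 for Hoxa, 0.984 to 1.13 for Hoxb, 0.932 to 1.25 for Hoxc and 0.959 to 1.45 for Hoxd. Over the genome limma called 0 regions with all libraries and 0 to 35 with 1 left out, 35 without dDAVP replicate 1 and 1 without dDAVP replicate 2; none lay in a Hox window. With a replicate block limma called 0 regions, in the windows and over the genome, at a smallest adjusted p of 0.925. Deviations of same-numbered libraries correlated at 0.0969 over regions, with 2 pairs, and the labels name nothing that same-numbered libraries share, so the numbers were not taken to pair them; whether they do was not settled. Of the other comparisons 55 with a library left out and 54 with another setting stayed the same. Apart from the rise of the treatment-only counts with a library left out, the cause of these changes was not tested. With 2 libraries per group, list lengths that differ by replicate number and no read counts, a small change at a Hox gene may not be detectable.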
